A study of Mus musculus with 36 samples.

Results

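The 46 genes described here are markers of macrophages and other leukocytes, components of complement, and chemokines, cytokines and receptors of innate immunity. They were chosen by symbol from the 53715 genes counted in each of 36 mouse kidney libraries. A total of 29 mark cell types and 17 encode mediators that cells can induce. Of the 46, 44 passed a filter on low counts and were tested. Cd163, the haemoglobin scavenger receptor of macrophages, and Tnf, the cytokine tumour necrosis factor, did not pass it.

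Macrophages reside between the tubules of the kidney. They depend on the receptor encoded by Csf1r, whose ligands are CSF1 and IL-34, display peptides on MHC class II molecules and are a main source of the complement protein C1q. Tubule cells can themselves make IL-34, CSF1, chemokines and complement C3, so a whole kidney holds both the signals and the cells that answer them.

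Polyadenylated RNA of whole kidneys was sequenced in 4 groups of 9 libraries. STZ-cKOt mice were Bmal1 lox/lox /Pax8-rtTA/LC1 animals given streptozotocin (STZ), which destroys pancreatic beta cells and so causes diabetes, and STZ-control mice were Bmal1lox/lox littermates given the same STZ. PBS-cKOt mice had that knockout genotype and PBS-control mice that littermate genotype, and both received the vehicle PBS. All 4 groups drank doxycycline (DOX) at 2 mg/ml for 2 weeks from an age of 8 weeks. Injections began 1 week later, with STZ at 50 mg/kg daily for 5 days, and the organs were collected at zeitgeber time (ZT) 9, counted in hours from lights on, when 8 weeks had passed since the final dose. Pax8-rtTA acts in cells of the renal tubule, where doxycycline switches on Cre from LC1 and Cre removes the floxed part of Bmal1, a clock gene listed as Arntl. Macrophages are not cells in which this driver is known to act. Controls carried neither transgene, so the deletion and the transgenes cannot be told apart.

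Between 16893364 and 22347538 reads per library were assigned to genes. Levels are given as CPM, read counts scaled to a common library size with edgeR's TMM factors. Kidney genes were abundant in every library, with Slc34a1, the phosphate transporter of the proximal tubule, between 3331 and 5474 CPM and Umod, uromodulin of the thick ascending limb, between 1186 and 3179 CPM. Arntl lay between 12.9 and 17.4 CPM in the 18 cKOt libraries. It lay between 1.09 and 2.40 CPM in PBS-control libraries and between 1.18 and 2.64 CPM in 8 of the 9 STZ-control libraries. The library labelled STZ-control 2 had 13.4 CPM, a level of cKOt libraries that goes against its label. It was kept under that label, and results are also given without it. The whole-gene count does not show the deletion itself.

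Per length of exon, the members spanned a wide range of levels. Cd74, the invariant chain that guards the peptide groove of MHC class II molecules, stood highest, at median levels of 65.6, 102, 65.5 and 86.97 CPM per kilobase of exon (RPKM) in STZ-cKOt, STZ-control, PBS-cKOt and PBS-control kidneys. The MHC class II chain genes H2-Aa, H2-Ab1 and H2-Eb1 and Cxcl12 followed, each above 16 RPKM in all 4 groups. Csf1r had median levels between 7.63 and 10.4 RPKM, where Adgre1, which encodes the macrophage surface marker F4/80, had between 0.988 and 1.87 RPKM. Markers of T and B cells were low, with Cd3e, Cd4, Cd8a and Cd79a below 0.5 RPKM in every group. Cd163 stood lowest, between 0.0336 and 0.0499 RPKM, and Tnf between 0.112 and 0.138 RPKM.

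**Figure D1:**
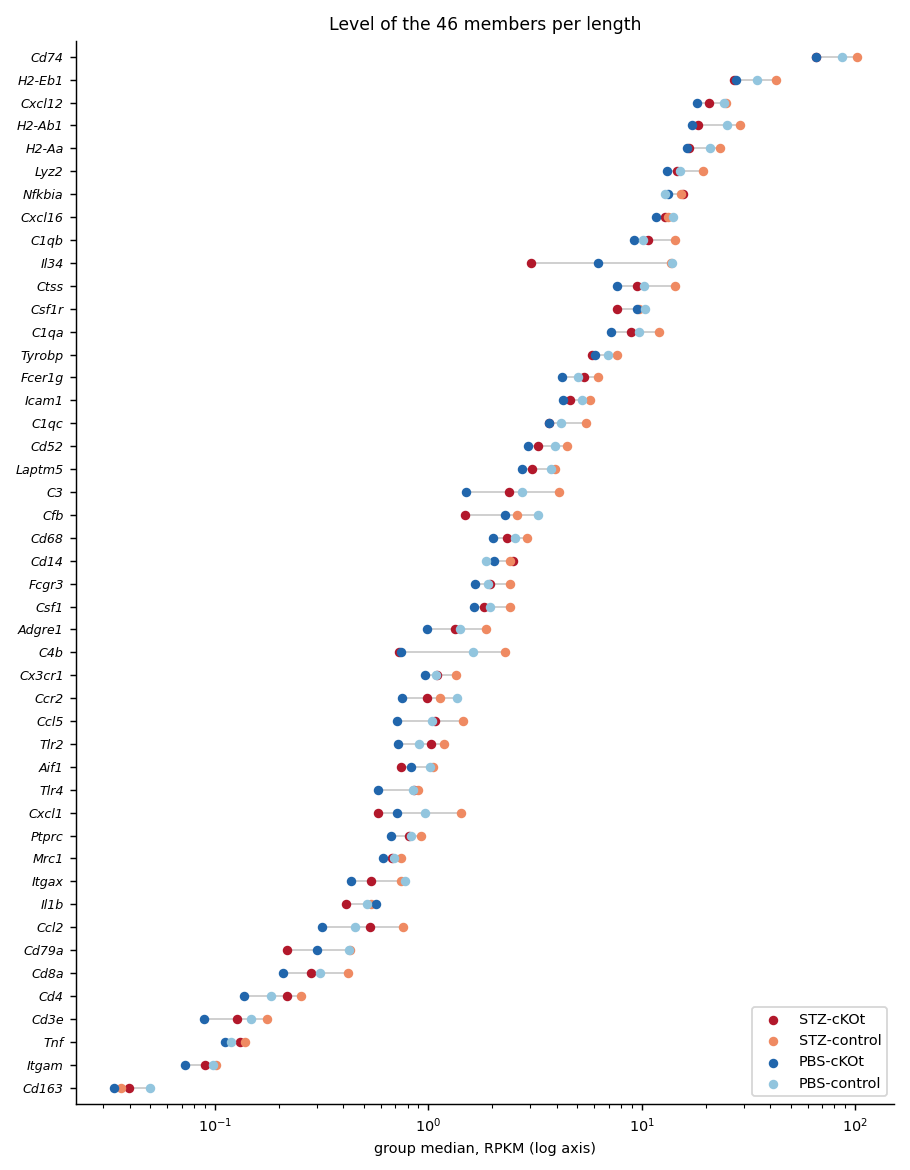
Median level of each of the 46 genes in each group of 9 libraries, in RPKM on a log axis, ordered by level. Il34 shows the widest spread between groups among the more abundant genes, at 3.02 RPKM in STZ-cKOt and 13.7 RPKM in STZ-control kidneys, and the cKOt medians (dark points) mostly lie left of the control medians of the same treatment (light points).

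In STZ mice, 26 of the 44 tested genes fell in cKOt kidneys relative to control kidneys and 0 rose, at an edgeR quasi-likelihood p adjusted by Benjamini and Hochberg's method below 0.05. Of all 15637 genes tested, 10.1% fell and 9.52% rose. The median difference of the 44 genes was −0.44 on the log2 scale, against −0.01 over all tested genes. Of the cell markers 19 of 28 fell, with a median of −0.43, and of the mediators 7 of 16, with a median of −0.45. Nfkbia and Cd14 were the members with a positive estimate, at edgeR adjusted p = 0.744 and 0.841. Neither had an unadjusted p below 0.05, and neither DESeq2 nor limma voom called a rise. In whole kidneys, fewer cells of a type and less RNA per cell cannot be told apart. Of the proximal tubule markers, 6 of 11 fell in the same comparison. Without the library labelled STZ-control 2, 21 of the members fell.

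In PBS mice, 23 of the 44 fell in cKOt kidneys and 0 rose, where 12.5% of all tested genes fell and 10.9% rose. The median difference of the 44 was −0.35, against a median of all genes near 0. Cell markers accounted for 13 of 28 and mediators for 10 of 16. The estimates of Cd14, Nfkbia and Il1b were positive, at edgeR adjusted p = 0.352, 0.871 and 0.926. None had an unadjusted p below 0.05, and DESeq2 and limma voom called no rise. Of the fibroblast and mural markers, 5 of 8 fell in the same comparison. Fat tissue markers stood apart. The summed level of 10 adipocyte markers was between 36.5 and 146 CPM in PBS-cKOt and between 47.8 and 339 CPM in PBS-control kidneys, and it was highest in PBS-control 8, 6 and 4 and PBS-cKOt 3. Without those 4 libraries, 10 of the members fell: H2-Aa, H2-Ab1, Itgam, Itgax, Ccr2, C3, C4b, Il34, Ccl5 and Cxcl12. The part of adipose tissue, or of the smaller number of libraries, in this drop was not tested. Without PBS-cKOt 6, 15 fell.

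A total of 16 genes fell in both treatments. They were 16 of the 44 tested members, beside 909 of all 15637 tested genes (5.81%) that fell in both. The treatments used separate libraries, but both tests came from the fit of all 36, with a shared estimate of each gene's spread. As a part of the members' calls, the 16 were 61.5% in STZ mice and 69.6% in PBS mice. Over all tested genes, the 909 stood among 1573 falls in STZ mice and 1954 falls in PBS mice. The 16 hold the 4 MHC class II genes, C1qa, C4b, Cfb, Csf1, Il34, Cxcl1, Icam1, Itgax, Lyz2, Ctss, Laptm5 and Cd52. Without the 4 libraries high in adipocyte markers, 4 of the 16 passed in both treatments: H2-Aa, H2-Ab1, C4b and Il34. Of the others, 11 lost the call in PBS mice and Itgax that in STZ mice (edgeR adjusted p = 0.051). The groups did not overlap for H2-Aa and H2-Eb1 in STZ mice, where 1.64% of all tested genes were lower without overlap, and for Il34 in PBS mice, where 2.72% were.

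Calls near the threshold depended on single libraries. With each of the 36 libraries left out in turn, 17 of the 26 calls in STZ mice and 13 of the 23 in PBS mice always held, and no estimate of a called gene changed sign. In STZ mice Icam1 was lost without STZ-control 5 (edgeR adjusted p = 0.0505), and Ccl2 without STZ-control 2 or 4 or STZ-cKOt 3 or 9 (highest edgeR adjusted p = 0.0658). Itgax was lost without any 1 of 13 libraries, Cx3cr1 of 12, Lyz2 of 9, Cfb of 8, Cd8a of 7 and Aif1 and Fcer1g of 6 each, with edgeR adjusted p up to 0.149. In PBS mice Ctss and Cfb were lost without PBS-cKOt 6 (edgeR adjusted p = 0.0529 and 0.0502) and Cd52 without PBS-control 6 (edgeR adjusted p = 0.0626). C1qa was lost without PBS-control 2 or 6 or PBS-cKOt 3 or 6, Icam1 without PBS-control 2 or 9 or PBS-cKOt 4 or 6, and Csf1 without PBS-control 6, 8 or 9 or PBS-cKOt 6 or 8. Lyz2 and Cxcl1 were lost without any 1 of 9 libraries, Cxcl16 of 10 and Itgam of 12, with edgeR adjusted p up to 0.132.

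**Figure D2:**
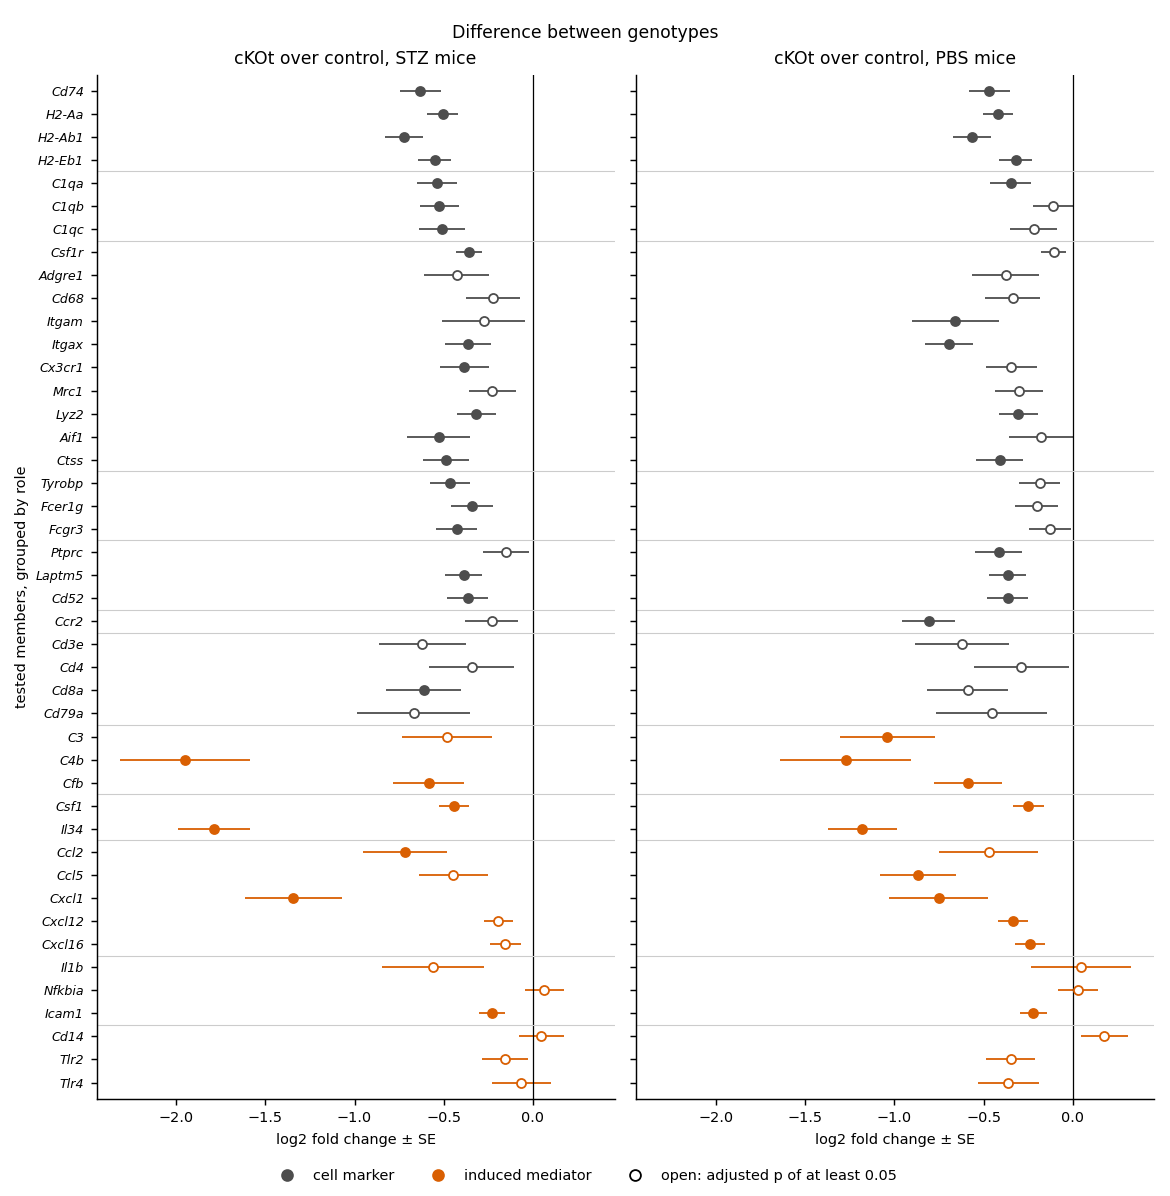
Difference of cKOt from control kidneys for the 44 tested genes, in STZ mice (left) and PBS mice (right), as log2 fold change ± SE, with filled points at an adjusted p below 0.05. Points lie left of 0 for 42 genes in STZ mice and 41 in PBS mice, and Il34 and C4b lie furthest left in both.

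MHC class II genes moved together. H2-Aa (ENSMUSG00000036594, chromosome 17, 34282744 to 34287823), H2-Ab1 (ENSMUSG00000073421, chromosome 17, 34257689 to 34269419) and H2-Eb1 (ENSMUSG00000060586, chromosome 17, 34305867 to 34316674, all GRCm38) encode chains of the molecules that present peptides to CD4 T cells, and Cd74 their invariant chain. The 150 bases before the start of H2-Aa and H2-Eb1 are shown because these were the genes without overlap in STZ mice and because both hold the Y box, a CCAAT element of MHC class II promoters. Sequences are from RefSeq (GRCm38.p6), 5′ to 3′ on the gene's strand, and capitals mark CTGATTGG.
H2-Aa, chr17:34287824-34287973, minus strand: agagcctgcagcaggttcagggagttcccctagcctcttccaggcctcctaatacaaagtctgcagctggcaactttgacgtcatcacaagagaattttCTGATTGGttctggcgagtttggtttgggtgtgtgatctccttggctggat
H2-Eb1, chr17:34305717-34305866, plus strand: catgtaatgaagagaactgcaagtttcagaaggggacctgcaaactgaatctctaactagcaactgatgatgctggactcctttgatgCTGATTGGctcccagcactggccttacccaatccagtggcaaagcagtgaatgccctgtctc
The box lies 51 to 44 bases before the start of H2-Aa and 62 to 55 bases before that of H2-Eb1. Searched on both strands of windows from 250 bases before to 50 after the start, these 8 letters occurred in 2 of the 30 matched members and in 4.70% of 27025 genes. The table held no entry for Cd74, H2-Ab1, C1qa, C4b, Cfb, Csf1r, Il34, Ccl2, Ccl5, Cxcl16, Cd4, Cd14, Cd52, Tlr4, Tyrobp and Adgre1.

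H2-Aa had 59.2, 63.5 and 73.3 CPM in STZ-cKOt kidneys and 75.3, 88.8 and 110.2 CPM in STZ-control kidneys, given here and below as the lowest, median and highest of 9 libraries. All STZ-cKOt libraries lay below all STZ-control libraries, and the gene fell by 0.51 ± 0.086 on the log2 scale (± SE; edgeR adjusted p = 1.95e-05). In PBS mice it had 42.8, 62.1 and 71.2 CPM in cKOt and 65.9, 79.8 and 98.6 CPM in control kidneys. These groups overlapped, with 6 of 9 PBS-cKOt libraries below every PBS-control one, and H2-Aa fell by 0.42 ± 0.086 (edgeR adjusted p = 0.0003).

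H2-Ab1 showed the largest fall of the 4. It had 38.1, 46.9 and 57.7 CPM in STZ-cKOt and 57.5, 74.5 and 107 CPM in STZ-control kidneys, and fell by 0.72 ± 0.11 (edgeR adjusted p = 1.64e-06). Of the STZ-cKOt libraries, 8 lay below every STZ-control one. Without STZ, the gene had 33.8, 44.3 and 56.7 CPM in cKOt and 54.3, 64.5 and 92.6 CPM in control kidneys, and fell by 0.57 ± 0.11 (edgeR adjusted p = 8.76e-05). Of the PBS-cKOt libraries, 7 lay below every control.

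H2-Eb1 had 46.7, 52.8 and 60.3 CPM in STZ-cKOt and 60.5, 83.1 and 92.97 CPM in STZ-control kidneys, without overlap. It fell by 0.55 ± 0.093 (edgeR adjusted p = 1.77e-05). In PBS mice, with 43.7, 53.5 and 69.1 CPM in cKOt and 52.3, 67.1 and 86.3 CPM in control kidneys, the groups overlapped, and H2-Eb1 fell by 0.32 ± 0.093 (edgeR adjusted p = 0.0101). Cd74 had 98.01, 110.2 and 129 CPM in STZ-cKOt and 113, 172 and 249.97 CPM in STZ-control kidneys, and 75.1, 109.98 and 125 CPM in PBS-cKOt and 108, 146 and 181 CPM in PBS-control kidneys. The control libraries were spread more widely than the cKOt ones in STZ mice, and every cKOt library lay below the control median in both treatments. Cd74 fell by 0.63 ± 0.12 in STZ mice (edgeR adjusted p = 7.11e-05) and by 0.47 ± 0.12 in PBS mice (edgeR adjusted p = 0.00252). Without the 4 libraries high in adipocyte markers, Cd74 and H2-Eb1 no longer passed in PBS mice, at −0.37 (edgeR adjusted p = 0.057) and −0.24 (edgeR adjusted p = 0.116).

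**Figure D3:**
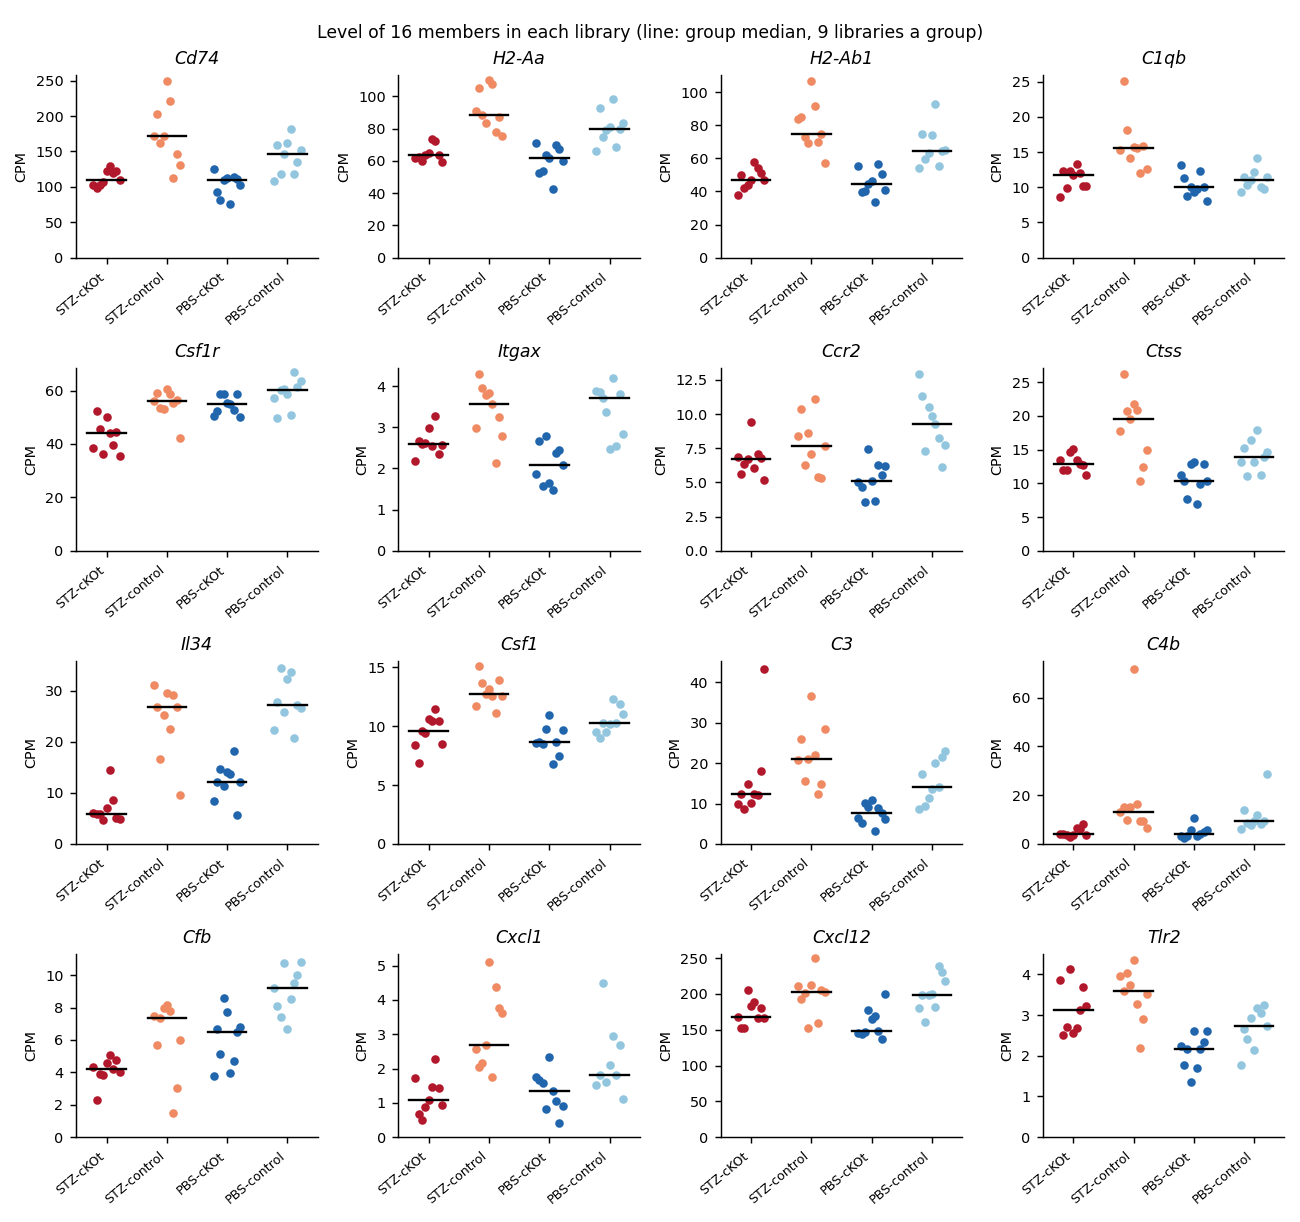
Level of 16 of the genes in each of the 36 libraries, in CPM, by group, with lines at the group medians. The 9 STZ-cKOt libraries lie below all 9 STZ-control libraries for H2-Aa, and single libraries stand far above their group for C3 (STZ-cKOt 9, 43.3 CPM) and C4b (STZ-control 5, 71.6 CPM).

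The 3 chains of C1q, the recognition protein that starts the classical complement pathway, fell in STZ-cKOt kidneys. C1qa, C1qb and C1qc lie side by side on chromosome 4, between 136880129 and 136898803 (GRCm38). C1qb had 8.64, 11.7 and 13.3 CPM in STZ-cKOt and 12.02, 15.6 and 25.2 CPM in STZ-control kidneys. Its 9 cKOt libraries lay below the control median, and the highest value belonged to the library labelled STZ-control 2. C1qa had 7.26, 9.25 and 10.3 CPM in STZ-cKOt and 8.63, 12.6 and 19.3 CPM in STZ-control kidneys, and C1qc had 5.77, 7.09 and 8.56 CPM in STZ-cKOt and 7.501, 10.5 and 16.004 CPM in STZ-control kidneys. For both, too, every cKOt library was below the control median. C1qa fell by 0.54 ± 0.11 (edgeR adjusted p = 0.000444), C1qb by 0.53 ± 0.11 (edgeR adjusted p = 0.000381) and C1qc by 0.51 ± 0.13 (edgeR adjusted p = 0.00371). Without that library the estimates were −0.44, −0.42 and −0.41, all still past the threshold.

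In PBS mice 1 of the 3 chains passed the test. C1qa had 6.39, 7.48 and 10.3 CPM in PBS-cKOt and 7.46, 10.1 and 12.4 CPM in PBS-control kidneys and fell by 0.35 ± 0.11 (edgeR adjusted p = 0.0242), a call that did not hold without the 4 libraries high in adipocyte markers. C1qb had 7.99, 10.01 and 13.1 CPM in PBS-cKOt and 9.397, 11.05 and 14.2 CPM in PBS-control kidneys, largely overlapping, with a difference of −0.11 ± 0.11 (edgeR adjusted p = 0.51). For C1qc the difference was −0.22 ± 0.13 (edgeR adjusted p = 0.245).

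Among 11 macrophage surface and lysosomal markers, 6 fell in STZ-cKOt kidneys and 4 in PBS-cKOt kidneys, of 10 tested. Over all tested genes, 10.1% fell in STZ mice and 12.5% in PBS mice. Csf1r, the receptor for CSF1 and IL-34, had 35.4, 44.04 and 52.4 CPM in STZ-cKOt and 42.1, 55.99 and 60.8 CPM in STZ-control kidneys. It fell by 0.36 ± 0.071 (edgeR adjusted p = 0.000201), and 4 of the 9 cKOt libraries lay below every control. In PBS mice it had 50.2, 54.8 and 58.8 CPM in cKOt and 49.9, 60.2 and 66.99 CPM in control kidneys, with a difference of −0.11 ± 0.070 (edgeR adjusted p = 0.292). Ctss, cathepsin S, the lysosomal protease that cuts the invariant chain, had 11.3, 12.9 and 15.1 CPM in STZ-cKOt and 10.4, 19.5 and 26.2 CPM in STZ-control kidneys. Every cKOt library was below the control median, while STZ-control 7 was the lowest of all 18. Ctss fell by 0.49 ± 0.13 (edgeR adjusted p = 0.00543) in STZ mice and by 0.41 ± 0.13 (edgeR adjusted p = 0.021) in PBS mice. The call in PBS mice did not hold without the 4 libraries high in adipocyte markers, at −0.25 (edgeR adjusted p = 0.284).

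Itgax, which encodes CD11c, a surface integrin of dendritic cells and many kidney macrophages, fell in both treatments. It had 1.47, 2.08 and 2.78 CPM in PBS-cKOt and 2.48, 3.72 and 4.198 CPM in PBS-control kidneys, with 7 of 9 cKOt libraries below every control, and fell by 0.70 ± 0.13 (edgeR adjusted p = 0.000118). In STZ mice it had 2.18, 2.6002 and 3.27 CPM in cKOt and 2.12, 3.57 and 4.31 CPM in control kidneys and fell by 0.37 ± 0.13 (edgeR adjusted p = 0.0418), a call lost without STZ-control 2. Lyz2, lysozyme of macrophages and neutrophils, fell by 0.32 ± 0.11 in STZ mice (edgeR adjusted p = 0.0347) and by 0.31 ± 0.11 in PBS mice (edgeR adjusted p = 0.0412). Its call in PBS mice did not hold without the 4 libraries high in adipocyte markers, at −0.20 (edgeR adjusted p = 0.274). Reads that Lyz2 shares with its close paralog Lyz1 may have been dropped or split. Aif1, the calcium-binding protein IBA1, and Cx3cr1, the fractalkine receptor, fell in STZ mice, by 0.53 ± 0.18 (edgeR adjusted p = 0.0289) and 0.38 ± 0.14 (edgeR adjusted p = 0.0473). The falls of Lyz2, Aif1 and Cx3cr1 in STZ mice did not pass without STZ-control 2.

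Itgam, which encodes CD11b of monocytes and neutrophils, was low, at 0.165, 0.363 and 0.492 CPM in PBS-cKOt and 0.244, 0.4927 and 0.737 CPM in PBS-control kidneys, and fell by 0.66 ± 0.24 in PBS mice (edgeR adjusted p = 0.0454). It differed by −0.28 ± 0.23 in STZ mice (edgeR adjusted p = 0.443). Adgre1, Cd68, a lysosomal glycoprotein, and Mrc1, the mannose receptor CD206, passed the test in neither treatment. Their differences lay between −0.43 ± 0.18 (Adgre1) and −0.22 ± 0.15 (Cd68) in STZ mice and between −0.37 ± 0.19 (Adgre1) and −0.30 ± 0.14 (Mrc1) in PBS mice, with edgeR adjusted p between 0.0969 and 0.327 over both.

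The Fc receptor genes and their adaptor fell in STZ-cKOt kidneys. Tyrobp, the adaptor DAP12 of activating receptors, had 3.39, 3.902 and 4.37 CPM in STZ-cKOt and 4.31, 5.11 and 7.03 CPM in STZ-control kidneys. Of its cKOt libraries, 8 lay below every control, and it fell by 0.47 ± 0.11 (edgeR adjusted p = 0.00249). Fcgr3, a low-affinity receptor for IgG, had 2.502, 3.38 and 3.71 CPM in STZ-cKOt and 2.79, 4.18 and 6.39 CPM in STZ-control kidneys. Fcer1g, the gamma chain shared by Fc receptors, had 3.49, 4.699 and 5.39 CPM in STZ-cKOt and 4.75, 5.45 and 6.8004 CPM in STZ-control kidneys. All cKOt libraries of both genes lay below the control medians. Fcgr3 fell by 0.43 ± 0.12 (edgeR adjusted p = 0.00646), and Fcer1g fell by 0.34 ± 0.12 (edgeR adjusted p = 0.0328), a call lost without the library labelled STZ-control 2. In PBS mice the differences were −0.19 ± 0.12, −0.13 ± 0.12 and −0.20 ± 0.12, with edgeR adjusted p between 0.228 and 0.472.

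Of the 3 genes of all leukocytes, 2 fell in STZ mice and 3 in PBS mice, where 10.1% and 12.5% of all tested genes fell. Ptprc, the leukocyte common antigen CD45, had 7.71, 12.3 and 14.996 CPM in PBS-cKOt and 11.4, 15.3 and 18.6 CPM in PBS-control kidneys and fell by 0.42 ± 0.13 (edgeR adjusted p = 0.0179). In STZ mice its difference was −0.15 ± 0.13 (edgeR adjusted p = 0.453). Laptm5, a lysosomal membrane protein of blood cells, had 10.1, 11.6 and 14.3 CPM in STZ-cKOt and 9.56, 14.9 and 19.9 CPM in STZ-control kidneys, and 8.51, 10.4 and 13.03 CPM in PBS-cKOt and 10.3, 14.2 and 17.1 CPM in PBS-control kidneys. In both treatments every cKOt library was below the control median. Laptm5 fell by 0.39 ± 0.10 in STZ mice (edgeR adjusted p = 0.00508) and 0.37 ± 0.10 in PBS mice (edgeR adjusted p = 0.00834). Cd52, a small surface glycoprotein, had 3.34, 3.87 and 4.62 CPM in STZ-cKOt and 3.53, 5.296 and 6.12 CPM in STZ-control kidneys, and 3.21, 3.501 and 5.21 CPM in PBS-cKOt and 3.64, 4.68 and 6.98 CPM in PBS-control kidneys. PBS-cKOt 1 and PBS-control 6 gave the highest values of their groups, apart from the rest. Cd52 fell by 0.36 ± 0.11 in STZ mice (edgeR adjusted p = 0.0196) and by 0.36 ± 0.12 in PBS mice (edgeR adjusted p = 0.0186). Without the 4 libraries high in adipocyte markers, none of the 3 genes passed in PBS mice. Ptprc was at −0.41 (edgeR adjusted p = 0.0658), Laptm5 at −0.32 (edgeR adjusted p = 0.0759) and Cd52 at −0.23 (edgeR adjusted p = 0.22).

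Ccr2, the receptor through which CCL2 draws monocytes, showed the largest fall among the cell markers in PBS mice. It had 3.58, 5.09 and 7.43 CPM in PBS-cKOt and 6.09, 9.27 and 12.9 CPM in PBS-control kidneys. All 9 cKOt libraries lay below the control median and 6 below every control, and Ccr2 fell by 0.81 ± 0.15 (edgeR adjusted p = 7.69e-05). In STZ mice it had 5.15, 6.697 and 9.45 CPM in cKOt and 5.29, 7.67 and 11.1 CPM in control kidneys, which overlapped, with a difference of −0.23 ± 0.15 (edgeR adjusted p = 0.299).

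Lymphocyte markers were close to the limit of detection. Cd8a, a chain of the CD8 coreceptor, had 0.665, 1.03 and 1.46 CPM in STZ-cKOt and 0.705, 1.53 and 2.59 CPM in STZ-control kidneys and fell by 0.61 ± 0.21 (edgeR adjusted p = 0.0341). In PBS mice, at 0.541, 0.757 and 1.06 CPM in cKOt and 0.579, 1.14 and 1.53 CPM in control kidneys, its difference of −0.59 ± 0.23 did not pass (edgeR adjusted p = 0.057). Cd3e of the T cell receptor complex, the coreceptor gene Cd4 and Cd79a of the B cell receptor had estimates below 0 in both treatments, between −0.67 and −0.29, and none passed.

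Complement genes outside C1q gave some of the widest differences. C4b (ENSMUSG00000073418, chromosome 17, 34728380 to 34743882) encodes C4, the second component of the classical pathway, and reads shared with its near-identical neighbour C4a may have been dropped or split. It had 2.67, 4.16 and 8.32 CPM in STZ-cKOt and 6.66, 13.04 and 71.6 CPM in STZ-control kidneys, the highest in STZ-control 5. Of the cKOt libraries, 7 lay below every control. C4b fell by 1.95 ± 0.36, or 3.87-fold (edgeR adjusted p = 8.79e-05). Leaving out 1 library at a time gave estimates between −2.09 and −1.31, all past the threshold, the smallest without STZ-control 5. Without STZ, the gene had 2.56, 4.23 and 10.6 CPM in cKOt and 6.23, 9.24 and 28.8 CPM in control kidneys and fell by 1.27 ± 0.37, or 2.42-fold (edgeR adjusted p = 0.00927).

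C3, on which all complement pathways converge, had 3.12, 7.73 and 10.997 CPM in PBS-cKOt and 8.63, 14.1 and 22.9 CPM in PBS-control kidneys. The groups overlapped, with 5 of 9 cKOt libraries below every control, and C3 fell by 1.04 ± 0.27, or 2.06-fold (edgeR adjusted p = 0.00349). In STZ mice it had 8.59, 12.3 and 43.3 CPM in cKOt and 12.4, 21.1 and 36.6 CPM in control kidneys. STZ-cKOt 9 stood above every other library while 6 of the 9 lay below every control, and the difference of −0.48 ± 0.25 did not pass (edgeR adjusted p = 0.187). Cfb, factor B of the alternative pathway, had 2.26, 4.18 and 5.06 CPM in STZ-cKOt, 1.46, 7.38 and 8.18 CPM in STZ-control, 3.78, 6.49 and 8.596 CPM in PBS-cKOt and 6.67, 9.22 and 10.8 CPM in PBS-control kidneys. Groups overlapped in both treatments, with STZ-control 7 the lowest of all. Cfb fell by 0.58 ± 0.20 in STZ mice (edgeR adjusted p = 0.0326) and by 0.59 ± 0.19 in PBS mice (edgeR adjusted p = 0.0222). Its call in PBS mice did not hold without the 4 libraries high in adipocyte markers, at −0.49 (edgeR adjusted p = 0.155).

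Both ligands of the CSF1 receptor fell in both treatments, and Il34 had the smallest p of all 44 genes in STZ mice. Il34 (ENSMUSG00000031750, chromosome 8, 110741829 to 110805924) encodes IL-34, which in the kidney is made by tubule cells. It had 4.76, 5.91 and 14.5 CPM in STZ-cKOt and 9.57, 26.8 and 31.1 CPM in STZ-control kidneys. Of the cKOt libraries, 8 lay below every control and STZ-cKOt 6 above 1 of them, STZ-control 9. Il34 fell by 1.79 ± 0.20, or 3.45-fold (edgeR adjusted p = 8.64e-09). In PBS mice it had 5.76, 12.2 and 18.3 CPM in cKOt and 20.7, 27.2 and 34.4 CPM in control kidneys, without overlap, and fell by 1.18 ± 0.20, or 2.27-fold (edgeR adjusted p = 1.25e-05). The 18 cKOt libraries thus held between 4.76 and 18.3 CPM of Il34 and the 18 control libraries between 9.57 and 34.4 CPM.

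Csf1, the other ligand, had 6.89, 9.62 and 11.4 CPM in STZ-cKOt and 11.2, 12.8 and 15.1 CPM in STZ-control kidneys. Of the cKOt libraries, 8 lay below every control, and Csf1 fell by 0.44 ± 0.086 (edgeR adjusted p = 0.000143). Without STZ, the gene had 6.76, 8.64 and 10.95 CPM in cKOt and 8.99, 10.3 and 12.3 CPM in control kidneys, and fell by 0.25 ± 0.087 (edgeR adjusted p = 0.0324). That call did not hold without the 4 libraries high in adipocyte markers, at −0.18 (edgeR adjusted p = 0.239).

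Chemokine genes differed in which treatment they passed. Cxcl1, a neutrophil attractant and a target of the factor NF-kappaB, is shown with the 150 bases before its start because it had the largest fall among the chemokines in STZ mice. Capitals mark 2 overlapping matches to the NF-kappaB consensus, 71 to 62 and 70 to 61 bases before the start (RefSeq, GRCm38.p6, 5′ to 3′).
Cxcl1, chr5:90891095-90891244, plus strand: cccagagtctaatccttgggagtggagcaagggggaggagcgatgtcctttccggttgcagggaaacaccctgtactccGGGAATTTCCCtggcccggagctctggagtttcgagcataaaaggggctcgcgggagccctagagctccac
The consensus, searched on both strands, occurred in 7 of the 30 matched members (C1qc, Csf1, Cxcl1, Fcgr3, H2-Aa, Nfkbia and Tlr2) and in 5.14% of 27025 genes. CACGTG, the E-box that CLOCK and BMAL1 bind, occurred in 0 of the 30 windows and in 8.09% of genes. A match or its absence in these windows is a description of letters and shows no binding.

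Cxcl1 had 0.491, 1.09 and 2.27 CPM in STZ-cKOt and 1.76, 2.68 and 5.11 CPM in STZ-control kidneys. Of the cKOt libraries, 8 lay below every control, and it fell by 1.34 ± 0.27, or 2.54-fold (edgeR adjusted p = 0.00027). In PBS mice it had 0.415, 1.34 and 2.34 CPM in cKOt and 1.11, 1.81 and 4.49 CPM in control kidneys and fell by 0.75 ± 0.28 (edgeR adjusted p = 0.0437), a call lost without the libraries high in adipocyte markers. Ccl2, the monocyte attractant that binds CCR2, had 0.407, 0.604 and 0.924 CPM in STZ-cKOt and 0.705, 0.863 and 1.45 CPM in STZ-control kidneys. With 7 of 9 cKOt libraries below every control it fell by 0.72 ± 0.24 (edgeR adjusted p = 0.0269), but the estimate of −0.63 without STZ-control 2 did not pass (edgeR adjusted p = 0.0658). Its difference in PBS mice was −0.47 ± 0.28 (edgeR adjusted p = 0.23).

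Ccl5, which attracts T cells and monocytes, had 0.2595, 0.687 and 0.838 CPM in PBS-cKOt and 0.635, 0.998 and 2.29 CPM in PBS-control kidneys and fell by 0.87 ± 0.21 (edgeR adjusted p = 0.00239). In STZ mice, at 0.732, 1.03 and 1.56 CPM in cKOt and 1.15, 1.39 and 1.93 CPM in control kidneys, the difference was −0.45 ± 0.19 (edgeR adjusted p = 0.105). Cxcl12, the ligand of CXCR4, was the most abundant chemokine of the list, at 137, 148 and 199 CPM in PBS-cKOt and 160.3, 199 and 239 CPM in PBS-control kidneys. It fell by 0.33 ± 0.083 in PBS mice (edgeR adjusted p = 0.00274) and differed by −0.19 ± 0.083 in STZ mice (edgeR adjusted p = 0.102). Cxcl16, a membrane-bound chemokine and scavenger receptor, had 26.9, 35.2 and 43.5 CPM in PBS-cKOt and 37.2, 42.4 and 47.8 CPM in PBS-control kidneys. Of the cKOt libraries, 5 lay below every control. Cxcl16 fell by 0.24 ± 0.086 in PBS mice (edgeR adjusted p = 0.0377) and differed by −0.15 ± 0.086 in STZ mice (edgeR adjusted p = 0.217). Its call in PBS mice did not hold without the 4 libraries high in adipocyte markers, at −0.17 (edgeR adjusted p = 0.268).

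Of the cytokine and NF-kappaB genes, Icam1, an adhesion molecule for leukocytes, was the one that passed. It had 18.9, 20.2 and 22.8 CPM in STZ-cKOt and 20.6, 24.9 and 27.5 CPM in STZ-control kidneys and fell by 0.23 ± 0.073 (edgeR adjusted p = 0.0212). Without STZ, the gene had 15.5, 18.7 and 22.2 CPM in cKOt and 16.7, 22.9 and 25.4 CPM in control kidneys and fell by 0.22 ± 0.074 (edgeR adjusted p = 0.0256). All cKOt libraries were below the control median in both treatments, but the ranges met. The call of Icam1 in PBS mice did not hold without the 4 libraries high in adipocyte markers, at −0.21 (edgeR adjusted p = 0.1005). Nfkbia, the NF-kappaB inhibitor that NF-kappaB itself induces, differed by 0.064 ± 0.11 in STZ mice (edgeR adjusted p = 0.744) and 0.031 ± 0.11 in PBS mice (edgeR adjusted p = 0.871). Il1b, which encodes interleukin 1 beta, differed by −0.56 ± 0.29 (edgeR adjusted p = 0.174) and 0.046 ± 0.28 (edgeR adjusted p = 0.926).

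The pattern recognition receptors gave no call between genotypes. Cd14, a coreceptor for bacterial lipopolysaccharide, differed by 0.048 ± 0.13 in STZ mice and 0.18 ± 0.13 in PBS mice. Tlr2, the receptor for lipopeptides, differed by −0.16 ± 0.13 and −0.35 ± 0.14, and Tlr4, the receptor for lipopolysaccharide, by −0.065 ± 0.17 and −0.36 ± 0.17. Their edgeR adjusted p lay between 0.0614 and 0.841. Tlr2 and Cd14 are among the rises with STZ given below.

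Whether the knockout difference depended on STZ was tested as an interaction, the STZ effect in cKOt mice minus that in control mice. None of the 44 genes passed in edgeR, where 0.0448% of all tested genes did, and 0 passed in DESeq2 or limma voom. At an unadjusted p below 0.05 there were 4 of 44, against 12.4% of all tested genes. They were C1qb at −0.42 ± 0.16, Csf1r at −0.25 ± 0.10, Il34 at −0.61 ± 0.28 and Ccr2 at 0.58 ± 0.21, with edgeR adjusted p between 0.364 and 0.379. So the genes called in STZ mice alone (Aif1, C1qb, C1qc, Ccl2, Cd8a, Csf1r, Cx3cr1, Fcer1g, Fcgr3 and Tyrobp) and in PBS mice alone (C3, Ccl5, Ccr2, Cxcl12, Cxcl16, Itgam and Ptprc) were not shown to differ between treatments.

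STZ itself moved fewer of the genes. In control mice 9 of 44 rose and 0 fell, where 6.34% of all tested genes rose and 5.93% fell. The median difference of the 44 was 0.26. Of the members with an estimate below 0, Cfb had an unadjusted p below 0.05. DESeq2 called it lower and limma voom called none lower. The rises were those of C1qa, C1qb, C1qc, Ctss, Fcgr3, Csf1, Ccl2, Cd14 and Tlr2. In cKOt mice 3 of 44 rose (C3, Ccl5 and Tlr2) and 2 fell (Csf1r and Il34), with a median of 0.16. These 2 counts are near the shares over all tested genes, of which 6.00% rose and 5.63% fell. The STZ comparison in control mice uses the same STZ-control and PBS-control libraries as the genotype comparisons, and that in cKOt mice the same cKOt libraries, so a high or low group enters both.

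**Figure D4:**
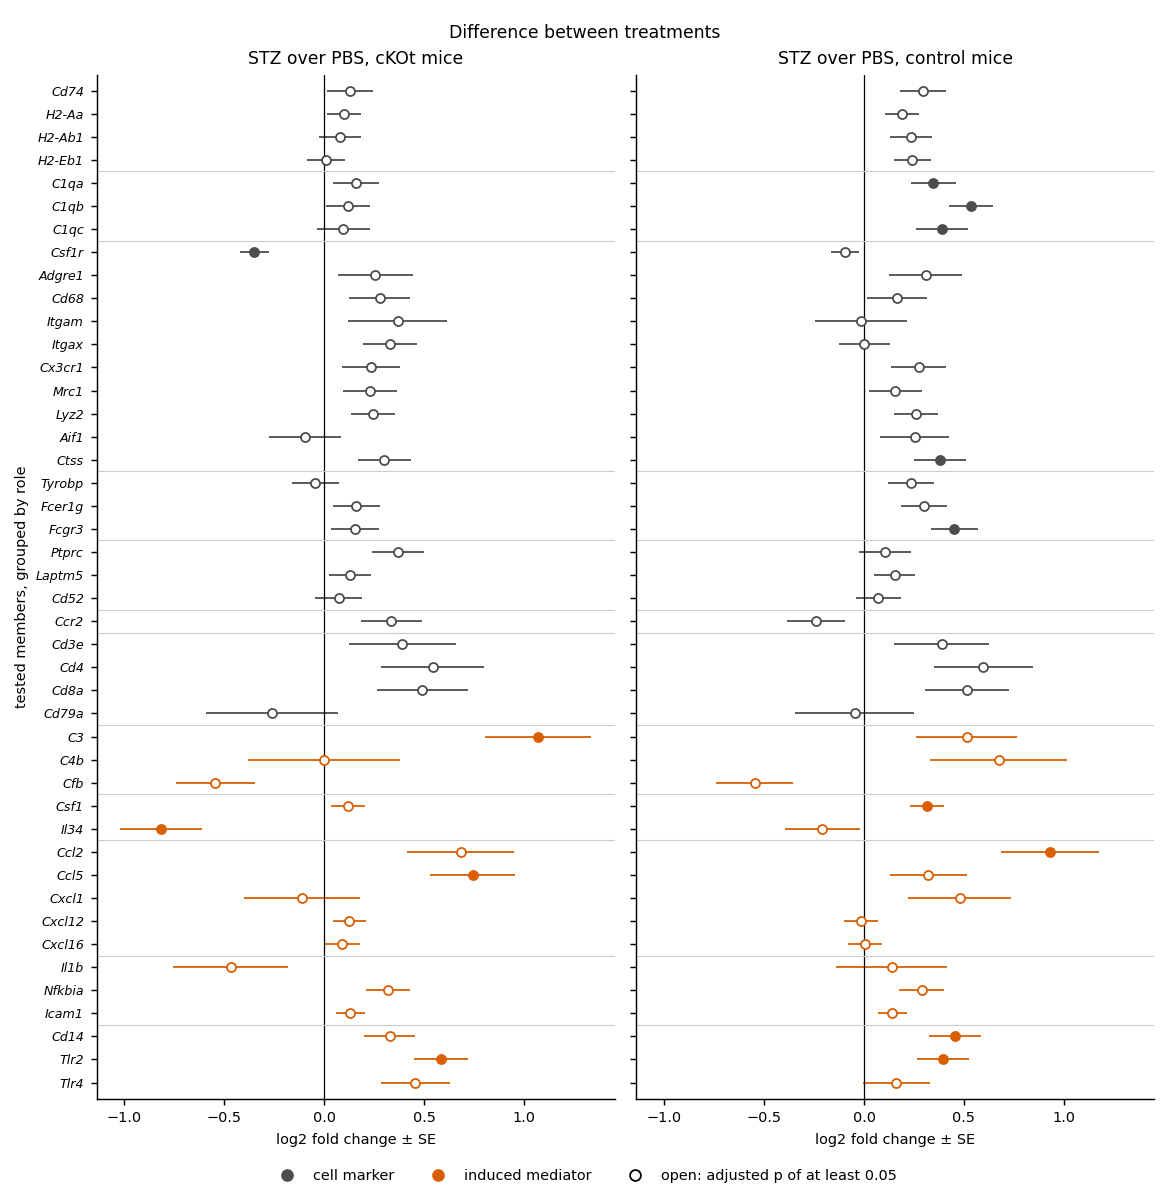
Difference of STZ from PBS kidneys for the 44 tested genes, in cKOt mice (left) and control mice (right), as log2 fold change ± SE, with filled points at an adjusted p below 0.05. Tlr2 is filled in both panels, the C1q chains are filled for control mice, and Csf1r and Il34 are the filled points left of 0, both for cKOt mice.

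C1qb had the smallest adjusted p among the rises in control mice. It had 12.02, 15.6 and 25.2 CPM in STZ-control and 9.397, 11.05 and 14.2 CPM in PBS-control kidneys, with all 9 STZ libraries above the PBS median and 6 above every PBS library, and rose by 0.54 ± 0.11 (edgeR adjusted p = 0.00102). C1qa rose by 0.35 ± 0.11 (edgeR adjusted p = 0.036) and C1qc by 0.39 ± 0.13 (edgeR adjusted p = 0.0437). In cKOt mice the 3 chains differed by 0.16 ± 0.11, 0.12 ± 0.11 and 0.096 ± 0.13, in the order C1qa, C1qb, C1qc, and none passed. Fcgr3 had 2.79, 4.18 and 6.39 CPM in STZ-control and 2.07, 3.305 and 3.71 CPM in PBS-control kidneys, with 8 of 9 STZ libraries above every PBS library, and rose by 0.45 ± 0.12 (edgeR adjusted p = 0.00788). Ctss rose by 0.38 ± 0.13 (edgeR adjusted p = 0.0475). Without the library labelled STZ-control 2, without PBS-control 1 or without PBS-control 3, 5 genes rose each time, and C1qa, C1qc, Ctss and Tlr2 were the ones lost. Without PBS-control 6, 14 rose.

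Among the mediators, Ccl2 had the largest rise in control mice, at 0.705, 0.863 and 1.45 CPM in STZ-control and 0.219, 0.516 and 0.846 CPM in PBS-control kidneys, and rose by 0.93 ± 0.24 (edgeR adjusted p = 0.00919). Of its STZ libraries, 7 lay above every PBS library. In cKOt mice, with 0.407, 0.604 and 0.924 CPM in STZ and 0.101, 0.363 and 0.689 CPM in PBS kidneys, the difference of 0.68 ± 0.27 did not pass (edgeR adjusted p = 0.094). Csf1, at 11.2, 12.8 and 15.1 CPM in STZ-control and 8.99, 10.3 and 12.3 CPM in PBS-control kidneys, rose by 0.31 ± 0.085 in control mice (edgeR adjusted p = 0.0124), with 7 of 9 STZ libraries above every PBS library, and differed by 0.12 ± 0.087 in cKOt mice (edgeR adjusted p = 0.423). Cd14 had 3.16, 4.18 and 6.21 CPM in STZ-control and 1.94, 3.22 and 4.05 CPM in PBS-control kidneys, with 5 STZ libraries above every PBS library. It rose by 0.46 ± 0.13 in control mice (edgeR adjusted p = 0.0167) and differed by 0.33 ± 0.13 in cKOt mice (edgeR adjusted p = 0.0891). Ccl2 and Cd14 did not pass without the 4 libraries high in adipocyte markers, at 0.82 (edgeR adjusted p = 0.0591) and 0.45 (edgeR adjusted p = 0.0532).

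Tlr2 rose with STZ in both genotypes. It had 2.52, 3.12 and 4.13 CPM in STZ-cKOt and 1.37, 2.17 and 2.61 CPM in PBS-cKOt kidneys, with 7 of 9 STZ libraries above every PBS library, and rose by 0.58 ± 0.13 (edgeR adjusted p = 0.00303). In control mice it had 2.19, 3.58 and 4.35 CPM with STZ and 1.76, 2.74 and 3.25 CPM with PBS and rose by 0.39 ± 0.13 (edgeR adjusted p = 0.0427). C3 had 8.59, 12.3 and 43.3 CPM in STZ-cKOt and 3.12, 7.73 and 10.997 CPM in PBS-cKOt kidneys. It rose by 1.07 ± 0.27 in cKOt mice (edgeR adjusted p = 0.00594), and by 0.71 without STZ-cKOt 9, still past the threshold (edgeR adjusted p = 0.0333). All 9 STZ-cKOt libraries lay above the PBS-cKOt median and 6 above every one. Ccl5 had 0.732, 1.03 and 1.56 CPM in STZ-cKOt and 0.2595, 0.687 and 0.838 CPM in PBS-cKOt kidneys and rose by 0.74 ± 0.21 (edgeR adjusted p = 0.0175), with 7 STZ libraries above every PBS library. In control mice C3 differed by 0.51 ± 0.25 and Ccl5 by 0.32 ± 0.19, and neither passed (edgeR adjusted p = 0.187 and edgeR adjusted p = 0.288).

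Csf1r and Il34, receptor and ligand, were the members lower with STZ in cKOt mice. Csf1r had 35.4, 44.04 and 52.4 CPM in STZ-cKOt and 50.2, 54.8 and 58.8 CPM in PBS-cKOt kidneys, with 7 of 9 STZ libraries below every PBS library, and fell by 0.35 ± 0.071 (edgeR adjusted p = 0.000777). In control mice its difference was −0.096 ± 0.070 (edgeR adjusted p = 0.39). Il34, at 4.76, 5.91 and 14.5 CPM in STZ-cKOt and 5.76, 12.2 and 18.3 CPM in PBS-cKOt kidneys, fell by 0.82 ± 0.21 in cKOt mice (edgeR adjusted p = 0.00668) and differed by −0.21 ± 0.19 in control mice (edgeR adjusted p = 0.505). Cfb had estimates below 0 in both genotypes, −0.54 ± 0.20 in cKOt mice (edgeR adjusted p = 0.0685) and −0.55 ± 0.19 in control mice (edgeR adjusted p = 0.053). DESeq2 called both of these falls of Cfb, while edgeR called neither. A total of 9 tested members passed in none of the 5 contrasts: Adgre1, Cd68, Mrc1, Cd3e, Cd4, Cd79a, Il1b, Nfkbia and Tlr4.

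Members also varied together among libraries of one group. For each pair, Pearson's r was taken over the 36 libraries on log2(CPM + 0.5) after subtracting group means. These values share depth and tissue sampling, and are given as a description. The mean r was 0.33 over pairs of the 28 cell markers and 0.17 over pairs of the 16 mediators, 0.18 between markers and mediators, and 0.00083 over pairs of all tested genes. The 4 MHC class II genes had a mean r of 0.86 and the 3 C1q chains 0.72. Against the 8 genes Adgre1, Csf1r, Cd68, C1qa, C1qb, C1qc, Cx3cr1 and Mrc1, Ctss had the highest mean r, at 0.59, and Laptm5 had 0.54.

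Some members stood apart from that pattern. Csf1r had a mean r of 0.013 with the other 7 genes of this macrophage list, the markers it is usually listed with. Its r was 0.27 with Il34 and −0.010 with Csf1. Il34 itself had a mean r of −0.030 with the list, Cxcl1 −0.23, Nfkbia 0.0024 and Cd8a −0.22. Cxcl16 had an r of 0.83 with Cd74, 0.68 with H2-Aa, 0.56 with H2-Ab1 and 0.42 with H2-Eb1, and Cfb had an r of 0.75 with Adgre1.

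**Figure D5:**
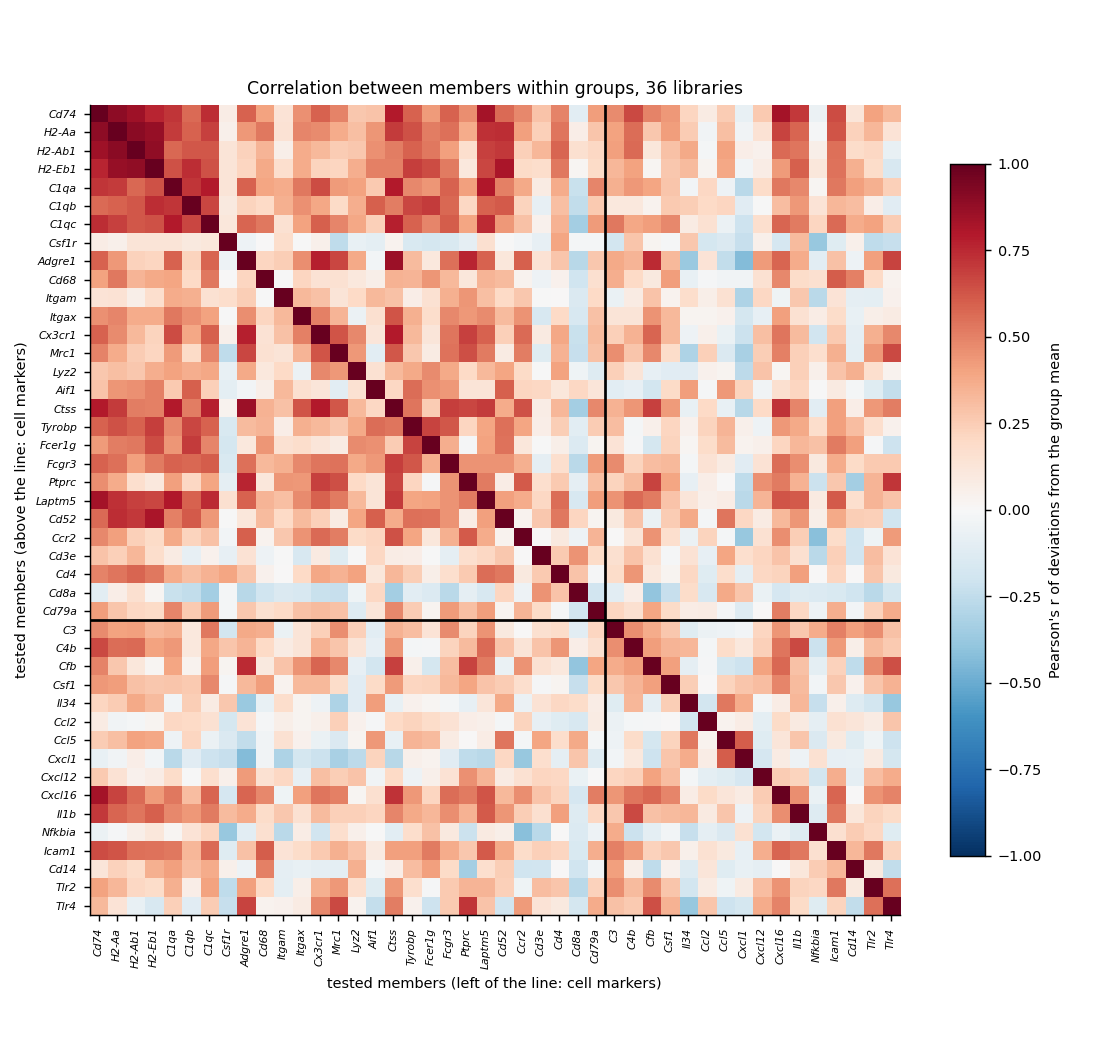
Pearson's r between the 44 tested genes over 36 libraries, from log2(CPM + 0.5) with group means subtracted, with black lines between cell markers and mediators. The MHC class II genes form the darkest block, with a mean r of 0.86. The row of Ccl2 is pale, with r between −0.19 and 0.27 with the other genes. Cxcl1 had an r of 0.61 with Ccl5 and −0.43 with Adgre1, and Il34 had 0.53 with Ccl5.

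Lists of related genes outside the 46 were read from the same fits. Of 30 other macrophage genes, 27 were tested, and 10 fell in STZ-cKOt and 14 in PBS-cKOt kidneys with 0 rises in edgeR. Of all tested genes, 10.1% fell and 9.52% rose in STZ mice, and 12.5% fell and 10.9% rose in PBS mice. Lcp1, the leukocyte actin-bundling protein, fell by 0.49 ± 0.093 in PBS mice (edgeR adjusted p = 0.00011). Of 6 tested other MHC class II genes 4 fell in each treatment. H2-DMb1, part of the exchange factor that loads peptides, fell by 0.66 ± 0.11 in STZ mice (edgeR adjusted p = 1.57e-05) and by 0.53 ± 0.11 in PBS mice (edgeR adjusted p = 0.000379). Ciita, the transactivator of MHC class II genes, fell by 0.88 ± 0.15 in PBS mice (edgeR adjusted p = 1.39e-05).

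Of 20 tested other complement genes, 5 fell and 2 rose in STZ mice, where 10.1% of all tested genes fell and 9.52% rose. In PBS mice 3 fell and 3 rose, near the shares of 12.5% and 10.9% over all genes. C8a, a chain of the membrane attack complex, had 19.1 ± 2.69 CPM in STZ-cKOt and 40.7 ± 5.04 CPM in STZ-control kidneys (mean ± SD, n = 9) and fell by 1.10 ± 0.087 (edgeR adjusted p = 8.97e-13), and by 0.99 ± 0.085 in PBS mice (edgeR adjusted p = 6.51e-12). Cd55, a surface inhibitor of complement, fell by 1.05 ± 0.11 (edgeR adjusted p = 1.79e-09) and 1.12 ± 0.11 (edgeR adjusted p = 3.04e-10). Clu, clusterin, also an injury marker, rose by 0.54 ± 0.12 in PBS mice (edgeR adjusted p = 0.000721). Of 11 tested other chemokines 4 fell in STZ and 5 in PBS mice with 0 rises in edgeR. Cxcl10, an interferon-induced attractant of T cells, fell by 0.70 ± 0.12 (edgeR adjusted p = 3.46e-05) and 0.52 ± 0.13 (edgeR adjusted p = 0.0034). Of 20 tested other NF-kappaB genes, 3 fell and 1 rose in STZ mice, and 4 fell and 1 rose in PBS mice. Tnfaip2 was the rise in both, by 0.35 ± 0.079 (edgeR adjusted p = 0.000947) and 0.65 ± 0.079 (edgeR adjusted p = 2.94e-08).

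With STZ, Cxcl10 rose in both genotypes, by 0.70 ± 0.13 in cKOt mice (edgeR adjusted p = 0.000285) and 0.89 ± 0.13 in control mice (edgeR adjusted p = 4.64e-06). Of the other macrophage genes, 3 rose and 1 fell in cKOt mice and 2 rose and 1 fell in control mice, of 27 tested. The counts in control mice are near the shares over all genes, 6.34% rising and 5.93% falling, and in cKOt mice those shares were 6.00% and 5.63%. Fcgr2b, the inhibitory receptor for IgG, was the one that fell in both, by 0.36 ± 0.063 (edgeR adjusted p = 0.000158) and 0.35 ± 0.063 (edgeR adjusted p = 0.000229).

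Counts for markers of other cells stand beside the 10.1% of all tested genes that fell in STZ mice and the 12.5% in PBS mice, and a count of 1 in a list is near that share. In STZ mice, falls among tested markers numbered 1 of 7 for T and NK cells, 1 of 9 for B and plasma cells, 2 of 7 for dendritic cells, 1 of 8 for fibroblasts and mural cells, 6 of 11 for the proximal tubule and 1 of 11 for tubular injury. In PBS mice they numbered 2 of 7, 1 of 9, 1 of 7, 5 of 8, 4 of 11 and 3 of 11, in the same order, with 2 rises among the injury markers. Endothelial markers gave 0 of 7 falls in STZ mice and 1 of 7 in PBS mice, adipocyte markers 0 of 8 and 1 of 8, and the 5 red blood cell genes 0 in both. In PBS mice all 7 T and NK cell, 7 endothelial, 8 fibroblast and mural and 8 adipocyte markers had estimates below 0. Their medians were −0.52, −0.29, −0.26 and −0.83, where that of the 44 members was −0.35. In STZ mice these medians were −0.37, −0.025, −0.24 and 0.17. B and plasma cell and dendritic cell markers had medians of −0.11 and −0.17 in PBS mice, each with 2 estimates above 0. Only 2 of 10 neutrophil markers were tested, and neither passed between genotypes. The summed level of the 10 was between 1.57 and 4.86 CPM in STZ-cKOt, 1.33 and 9.88 CPM in STZ-control, 0.953 and 2.49 CPM in PBS-cKOt, and 1.42 and 2.67 CPM in PBS-control kidneys. With STZ, 1 of the 2, Ltf, rose in cKOt mice by 1.02 ± 0.31 (edgeR adjusted p = 0.0243), where 6.00% of all tested genes rose. Its mean level was low, at 0.478 CPM in STZ-cKOt and 0.237 CPM in PBS-cKOt kidneys.

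The fibroblast and mural sum, of 8 genes, was between 292 and 354 CPM in STZ-cKOt and between 325 and 389 CPM in STZ-control kidneys. It was between 206 and 281 CPM in PBS-cKOt and between 246 and 370.0 CPM in PBS-control kidneys. With STZ, 4 of these 8 rose in cKOt mice and 3 in control mice. Of 11 tested tubular injury markers, 6 rose in each genotype. Over all tested genes, 6.00% rose in cKOt mice and 6.34% in control mice. In control mice 5 of 8 adipocyte markers fell with STZ, where 5.93% of all tested genes fell. The part of any of these cell types in the members' differences was not tested.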

How the data were processed

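Messenger RNA of mouse kidneys was sequenced in 36 libraries from 500 ng of total RNA with a stranded poly(A) kit, per the labels' protocols. The authors deposited whole-number read counts per gene, 1 file per library. Trimming with cutadapt 1.8, alignment tool STAR 2.5.3a, counter HTSeq 0.9.1 and build GRCm38 are named in the submitters' processing notes. The counting options for strand and the annotation release are not given in the sources used here. Rows that name no gene stayed out of library sizes: per the file's own rows, 30.9 to 42.8% of reads had several alignments, which can cost near-identical genes such as C4b and C4a reads, 3.64 to 6.38% met no feature and 0.582 to 0.738% were ambiguous. Of 53715 gene IDs, 53620 matched a symbol in GENCODE M21.

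The main test was edgeR 4.0.16 on R 4.3.3 (filterByExpr, TMM, quasi-likelihood F test, 1 mean per group, all 36 libraries, 32 residual degrees of freedom), with p adjusted by Benjamini and Hochberg's method over 15637 genes in each of 5 contrasts and a threshold of 0.05. RPKM used the union exon length of GENCODE M21. The labels number the libraries of a group but do not say that each is a separate mouse; p-values measure the spread between these libraries. Alternatives were DESeq2's size factors, DESeq2 1.42.0, limma 3.58.1 voom with quality weights, no filter, a mean of at least 1 CPM, only the groups of the contrast, a replicate block, and left-out libraries. A left-out set of 4, taken from the second principal component, was STZ-control 7 and 8 with PBS-cKOt 1 and 3. Without these 4, Cd8a lost its call in STZ mice, and Itgam, Lyz2 and Csf1 lost theirs in PBS mice. The script was tested on simulated data. Leaving out the 4 libraries highest in adipocyte markers, and each library in turn, was chosen after seeing the data.

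The 46 genes, their 12 roles and the 15 other lists (macrophage, MHC class II, complement, chemokine, NF-kappaB, neutrophil, T and NK, B and plasma, dendritic, adipocyte, endothelial, fibroblast and mural, proximal tubule, tubular injury, red blood cell) were chosen with earlier results of these data known. Genes called in any contrast are given with values, at most 4 per role and contrast by adjusted p, and up to 3 genes per other list and contrast. Clu stands in the complement and injury lists, Cfd in the adipocyte and complement lists and Vcam1 in the NF-kappaB and injury lists. Promoter sequences come from RefSeq (GRCm38.p6), which matched 30 of the 46. The values of 1 listed gene are not reported here.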

Additional observations from a re-analysis of the deposited data

Results flagged for a closer look

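In each gene and group of 9 libraries, the highest or lowest library was set against the others by the ratio of its gap to the group's range. Of 184 groups, 18 exceeded Dixon's critical value for 9 samples, in 14 libraries. Chance alone flags about 1 in 20 groups of normally distributed values. The ratios were taken on CPM without a log, and some of the genes vary together, so the 18 are not set against that rate. The cause was not tested for any of them. Values are in CPM.

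Among cell markers, the library labelled STZ-control 2 was high for C1qb (25.2, others up to 18.1) and C1qc (16.004, others up to 11.3). PBS-cKOt 1 was high for Fcer1g (6.20, others up to 4.32) and Cd52 (5.21, others up to 3.93), PBS-control 6 for Cd52 (6.98, others up to 5.29), STZ-cKOt 5 for Ccr2 (9.45, others up to 7.10) and STZ-control 4 for the B cell gene Cd79a (1.49, others up to 0.722). STZ-control 9 was low for Csf1r (42.1, others from 53.3), and PBS-control 3 for Mrc1 (2.85, others from 4.23).

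Among mediators, C4b was flagged in 3 groups, in STZ-control 5 (71.6, others up to 16.5), PBS-cKOt 5 (10.6, others up to 5.76) and PBS-control 9 (28.8, others up to 13.97). STZ-cKOt 9 was high for C3 (43.3, others up to 18.02) and for Nfkbia (40.9, others up to 30.1). STZ-cKOt 6 was high for Il34 (14.5, others up to 8.66) and STZ-cKOt 2 low for Cfb (2.26, others from 3.82). PBS-cKOt 8 was low for Ccl5 (0.260, others from 0.556) and PBS-control 3 for Tlr4 (2.46, others from 4.34).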

How the results depend on the processing

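Across 10 alternative settings, 85 results for single genes gave 842 comparisons. Of these, 738 kept their direction and side of the threshold, 36 newly passed it, 68 no longer did, and 0 changed direction.

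The 23 falls in PBS-cKOt kidneys became 10 without the 4 libraries highest in adipocyte markers, where the calls were 25 for cKOt in STZ mice, 5 for STZ in cKOt mice, 8 for STZ in control mice and 0 for the interaction. The 5 calls for STZ in cKOt mice became 8 with DESeq2, 9 with limma voom and 8 with only the groups compared. The 9 for STZ in control mice became 5 without a filter and 5 with only the groups compared. Leaving out 1 library at a time gave 19 to 26 calls for cKOt in STZ mice, 15 to 23 in PBS mice, 5 to 8 for STZ in cKOt mice, 5 to 14 for STZ in control mice and 0 for the interaction. The lowest counts came without STZ-cKOt 3 (19) and PBS-cKOt 6 (15), and 8 calls for STZ in cKOt mice without PBS-cKOt 1. Among these fits STZ-control 2, PBS-control 1 and PBS-control 3 each left 5 calls for STZ in control mice and PBS-control 6 left 14. The cause was not tested.

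Groups share replicate numbers, but same-numbered libraries deviated together with correlations from −0.25 to 0.40, at most 4 of 9 pairs above 0.1 between any groups, so the numbers were not taken as pairing. With the replicate number as a block, 23 genes were called for cKOt in STZ mice, 23 in PBS mice, 5 for STZ in cKOt mice, 9 for STZ in control mice and 0 for the interaction. DESeq2's size factors moved the median of all genes by at most 0.0074 on the log2 scale. The TMM factors differed by genotype, and a higher factor lowers a library's CPM. They were between 0.869 and 0.982 in PBS-control and between 0.985 and 1.044 in PBS-cKOt libraries. In STZ-control libraries they were between 0.892 and 1.019, and in STZ-cKOt libraries between 1.022 and 1.091. The part of this scaling in the falls was not tested. The interaction needs all 4 groups, so the fit of only the groups compared was not run for it. Depth limits the genes near or below 1 CPM (Itgam, Cd3e, Cd4, Cd8a, Cd79a, Ccl2, Ccl5 and Il1b), and Cd163 and Tnf were too low to test.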

Other observations

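Some genes of the renal tubule differed between genotypes, in both directions in PBS mice. The median difference of 11 tested injury markers was −0.18 in STZ mice and 0.020 in PBS mice, and that of 11 proximal tubule markers was −0.17 and −0.21, with 5 and 4 of the 11 above 0. Havcr1, the injury marker KIM-1 of the proximal tubule, had 1.53 ± 0.695 CPM in STZ-cKOt and 4.18 ± 1.82 CPM in STZ-control kidneys (mean ± SD, n = 9 each) and fell by 1.45 ± 0.24 (edgeR adjusted p = 1.01e-05). In PBS mice it had 1.08 ± 0.359 CPM in cKOt and 2.23 ± 0.767 CPM in control kidneys and fell by 1.04 ± 0.26 (edgeR adjusted p = 0.0025). Miox, the enzyme that begins inositol breakdown in the proximal tubule, fell by 0.80 ± 0.11 in STZ-cKOt (edgeR adjusted p = 3.27e-07) and by 0.48 ± 0.11 in PBS-cKOt kidneys (edgeR adjusted p = 0.000805). With STZ, Lcn2, lipocalin 2, rose by 1.60 ± 0.26 in control mice (edgeR adjusted p = 5.04e-05), and Spp1, osteopontin, rose by 0.71 ± 0.10 in cKOt mice (edgeR adjusted p = 9.69e-06) and by 0.64 ± 0.10 in control mice (edgeR adjusted p = 4.93e-05).

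Of 7 tested dendritic cell markers, 2 fell in STZ mice and 1 in PBS mice, where 10.1% and 12.5% of all tested genes fell. The count of 1 in PBS mice is near that share. In each treatment 2 of the 7 had estimates above 0, and the median difference of the 7 was −0.38 in STZ and −0.17 in PBS mice. Clec9a, a receptor of cross-presenting dendritic cells, had 1.24 ± 0.402 CPM in STZ-cKOt and 2.33 ± 0.715 CPM in STZ-control kidneys and fell by 0.91 ± 0.19 (edgeR adjusted p = 0.000492). Flt3, a growth factor receptor that dendritic cells depend on, fell by 0.78 ± 0.24 in STZ mice (edgeR adjusted p = 0.0185). Cd209a, a lectin of monocyte-derived dendritic cells, had 0.545 ± 0.187 CPM in PBS-cKOt and 1.42 ± 0.349 CPM in PBS-control kidneys and fell by 1.36 ± 0.22 (edgeR adjusted p = 1.07e-05). Jchain, the joining chain of secreted antibodies, fell by 1.04 ± 0.34 in PBS mice (edgeR adjusted p = 0.0231). It was the 1 call among 9 tested B and plasma cell markers there, whose median difference was −0.11, and 12.5% of all tested genes fell. Ucp1, the uncoupling protein of brown fat, was at 107 CPM in PBS-control 8 and between 0.317 and 5.22 CPM in the other 8 PBS-control libraries. It reached at most 6.41 CPM in PBS-cKOt and 3.25 CPM in STZ-control kidneys, so no group difference is given for it.

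Averaged over the 28 tested cell markers, libraries deviated from their group by between −0.36 (STZ-control 7) and 0.33 (STZ-control 2) on the log2 scale. Averaged over the 16 mediators, the deviation lay between −0.34 (STZ-control 7) and 0.42 (STZ-control 5). STZ-control 7 also had the fewest assigned reads, 16893364, and the largest share of reads with several alignments, 42.8%. The part of either in its low values was not tested.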
